A study of Mus musculus with 3 samples.

Results

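The 8 globin genes listed in these tables and Alas2, the red cell enzyme gene of haem synthesis, were followed across 3 stages of hindlimb tendon development in the mouse. The members were chosen by symbol (Hbb-b1, Hbb-b2, Beta-s, Hbb-bh1, Hbb-y, Hba-a1, Hba-a2, Hba-x and Alas2), 9 of the 22072 gene symbols in the tables, and all 9 were found. RNA came from ScxGFP-positive cells sorted from embryonic hindlimbs of a mixed strain background at E11.5 (18 hindlimbs pooled), E13.5 (12 pooled) and E15.5 (11 pooled), with 1 library per stage and no treatment named in the labels. Scx, the scleraxis gene whose reporter was used for the sort, was at 375, 410 and 213 FPKM (reads or fragments relative to transcript length and to library size) in stage order. With 1 library per stage there is no replicate check and no test between stages, and every difference below is one between 2 libraries.

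Haemoglobin is a tetramer of alpha-like and beta-like chains, each holding a haem group. In the mouse, the first red cells come from the yolk sac and use embryonic chains, zeta (Hba-x) on the alpha side and epsilon-y (Hbb-y) and beta-h1 (Hbb-bh1) on the beta side. Red cells made later in the fetal liver use the adult alpha (Hba-a1, Hba-a2) and adult beta genes, and the replacement of the embryonic by the adult chains is known as globin switching. The beta-like genes lie together on chromosome 7 and the alpha-like genes on chromosome 11. Globins of these clusters are known chiefly as genes of red cells.

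The adult copies are so alike that reads can be shared among them, which is shown by 50-base stretches of coding sequence from the GENCODE transcripts (build GRCm38) that match these rows by RefSeq accession. The RefSeq table of GRCm38.p6 now lists the transcript given here as Hbb-b1 (NM_008220) under Hbb-bt, and Beta-s (NM_001201391) under Hbb-bs. Bases 392 to 441 of the beta-like coding sequence, counted from 1 at the start codon, are given first, and capitals mark the base where Beta-s and Hbb-b1 differ and, for Hbb-y, each base that differs from Beta-s.
Beta-s: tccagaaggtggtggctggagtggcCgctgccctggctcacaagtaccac
Hbb-b1: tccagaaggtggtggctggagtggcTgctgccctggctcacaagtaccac
Hbb-y: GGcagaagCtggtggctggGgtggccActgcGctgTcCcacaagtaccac
Bases 356 to 405 of the alpha-like coding sequence follow, with capitals marking the base where Hba-a1 and Hba-a2 differ and, for Hba-x, each base that differs from Hba-a1.
Hba-a1: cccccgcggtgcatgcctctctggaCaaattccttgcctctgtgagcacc
Hba-a2: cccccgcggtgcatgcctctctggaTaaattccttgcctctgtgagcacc
Hba-x: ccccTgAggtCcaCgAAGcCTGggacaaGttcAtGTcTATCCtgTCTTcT

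Beta-s and Hbb-b1 differed at 1 of 444 coding bases (C417T, from Beta-s to Hbb-b1), and Hba-a1 and Hba-a2 at 1 of 429 (C381T). Of all 43-base windows of the transcripts, 43 bases being about the span of 1 read in these libraries, 66.2% of those in Beta-s also occurred in Hbb-b1, and 88.5% of those in Hba-a2 also occurred in Hba-a1. The embryonic genes stand apart: Hbb-y shared 74.3% of its coding bases with Beta-s, Hbb-bh1 74.1%, and Hba-x shared 63.1% with Hba-a1, and none of their 43-base windows occurred in another of the 7 globin transcripts compared, which were those of all globin members but Hbb-b2. By these windows a read of an embryonic globin matched none of the other globin transcripts compared, whereas the split among adult copies of 1 family is uncertain. The adult sums, and with them the embryonic share, also depend on how reads matching several places were treated, which is not known here.

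The deposited rows carry that limit. On mm9, the build of the tables, Hbb-b1 (chr7:110961042-110962437) and Hbb-b2 (chr7:110961038-110962417) lie on top of each other, with Beta-s next to them (chr7:110975037-110976442), then Hbb-bh1 (chr7:110990152-110991676) and Hbb-y (chr7:111000268-111001721). Hba-a1 and Hba-a2 are each listed at 2 places, about chr11:32183672-32184486 and chr11:32196489-32197303, and both rows of the latter place are listed at 0 in every library. Hba-x lies before them at chr11:32176600-32178115, and Alas2 at chrX:146981960-147005165. All 12 rows of the members had the status OK in all 3 libraries, so the status does not mark the shared copies. FPKM was summed over the rows of a symbol.

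The stretches just before the start sites of 4 members are shown because these genes fall into an embryonic and an adult pattern below. They are 120 bases from the RefSeq promoter table (GRCm38.p6), 5′ to 3′ in the direction of the gene, and capitals mark matches on either strand to CACCC, to the CCAAT box, to GATAA (the core of GATA factor sites) or to ATAAA, a form of the TATA box.
Hbb-y, chr7:103853208-103853327, minus strand: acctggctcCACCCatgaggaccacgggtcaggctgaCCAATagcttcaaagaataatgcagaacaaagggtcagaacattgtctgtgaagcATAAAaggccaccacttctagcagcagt
Hba-x, chr11:32276480-32276599, plus strand: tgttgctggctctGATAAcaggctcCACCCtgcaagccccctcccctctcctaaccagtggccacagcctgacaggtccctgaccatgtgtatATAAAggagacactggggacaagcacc
Beta-s, chr7:103827929-103828048, minus strand: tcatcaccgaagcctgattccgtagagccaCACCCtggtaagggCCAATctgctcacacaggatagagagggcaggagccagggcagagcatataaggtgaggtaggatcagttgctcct
Hba-a1, chr11:32283552-32283671, plus strand: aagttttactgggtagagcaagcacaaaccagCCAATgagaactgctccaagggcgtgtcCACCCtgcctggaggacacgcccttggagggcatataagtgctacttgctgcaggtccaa

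Each of the 4 stretches held CACCC once, a motif that 31.7% of all 32851 promoter entries hold in the same 120 bases. CCAAT was in those of Hbb-y, Beta-s and Hba-a1 and in 21.3% of all entries. ATAAA was in those of Hbb-y and Hba-x (20.2% of all), and GATAA in that of Hba-x (10.5% of all). Neither goes with the embryonic genes alone, since the same bases of the adult Hbb-b1 also held ATAAA, and those of Alas2 held both. The full promoter entries, which are longer than the 120 bases shown, held GATAA 1 time for each of the 7 members with an entry. The absence of GATAA from a stretch above is thus one from these 120 bases only. The stretches of Beta-s and Hba-a1 held atataag, which misses ATAAA only in its last base. A GATAA match and an ATAAA match can overlap, and a match is only a run of letters. Of the 9 members, 7 had an entry by symbol, synonym or accession, and Hbb-bh1 and Hbb-b2 had none.

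Globin RNA was a small part of each library and changed in make-up from nearly all embryonic to nearly all adult. The 8 globins together stood at 9.71 FPKM at E11.5 (approximate 95% counting interval 8.47 to 11.1), 19.9 at E13.5 (17.9 to 22.0), then 87.5 at E15.5 (83.7 to 91.4), or 0.0061%, 0.0128% and 0.0490% of all FPKM. The embryonic genes Hbb-y, Hbb-bh1 and Hba-x made up 93.4% of globin FPKM at E11.5 (Wilson 95% interval 89.3 to 96.0), 64.2% at E13.5 (59.2 to 68.8), then 7.28% at E15.5 (6.23 to 8.49). These shares rest on about 222, 376 and 2026 estimated globin reads, and the intervals of the 3 stages do not overlap. Intervals here use a read number estimated from coverage and cover counting error only. They do not cover amplification, differences between embryos or the treatment of reads shared by adult copies. In bulk RNA, fewer cells of a type and less RNA per cell cannot be told apart.

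**Figure D1:**
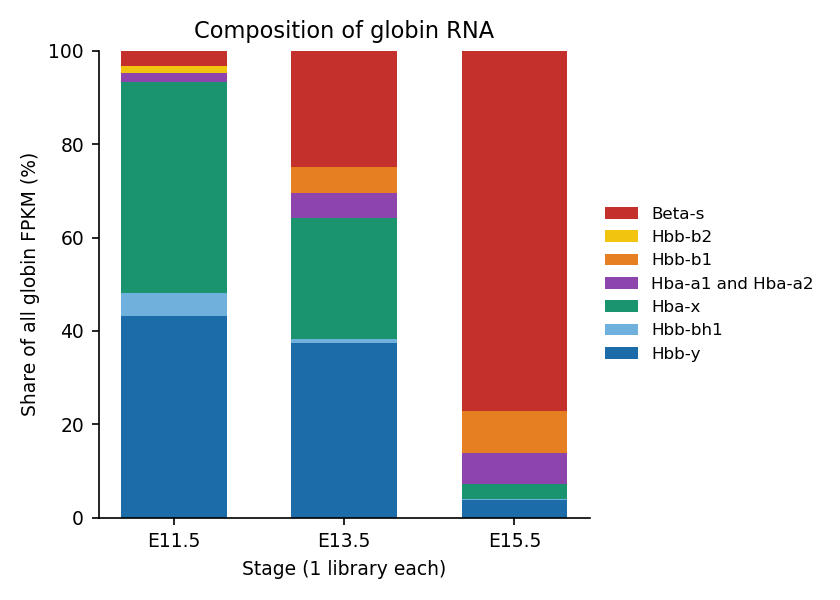
Stacked bars give each globin gene's share of all globin FPKM (%, vertical axis) at each stage, 1 library per bar, with the embryonic genes Hbb-y, Hbb-bh1 and Hba-x at the bottom. Embryonic genes fill 93.4% of the first bar, 64.2% of the next and 7.28% of the last, while Beta-s goes from 3.17% to 24.8% and 77.1%.

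Hbb-y, the epsilon-y gene, was at 4.196 FPKM at E11.5 (3.40 to 5.12), 7.43 at E13.5 (6.25 to 8.76), then 3.41 at E15.5 (2.69 to 4.26). Hba-x, the zeta gene, was at 4.39 FPKM (3.57 to 5.35), 5.13 (4.14 to 6.27) and 2.88 (2.22 to 3.68). Both were highest in the E13.5 library and lowest in the E15.5 library, although the intervals of Hba-x overlap between E11.5 and E13.5 and those of Hbb-y between E11.5 and E15.5. As a plain ratio of FPKM, Hbb-y was 1.77 times its E11.5 level at E13.5 (1.36 to 2.32) and then 0.459 times its E13.5 level at E15.5 (0.346 to 0.615). The matching ratios of Hba-x were 1.17 (0.874 to 1.57) and 0.562 (0.397 to 0.771). Zeta over epsilon-y stood at 1.05 (0.788 to 1.41), 0.690 (0.530 to 0.908) and 0.845 (0.588 to 1.18), and the interval at E13.5 lies below 1 while the others include it.

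Hbb-bh1, the beta-h1 gene, was the lowest of the embryonic globins throughout, at 0.481 FPKM at E11.5 (0.240 to 0.861), 0.184 at E13.5 (0.0439 to 0.504), then 0.0754 at E15.5 (0.0069 to 0.300). These values rest on about 11.0, 3.45 and 1.69 reads. The E15.5 level was 0.157 times the E11.5 level (0.0200 to 0.850), an interval that lies below 1 but rests on few reads, and the ratios of neighbouring stages, 0.383 (0.0596 to 1.26) and 0.410 (0.0466 to 4.87), have intervals that include 1. Hbb-y was 8.72 times as high as Hbb-bh1 at E11.5 (4.65 to 18.0) and 40.3 times in the E13.5 library (15.53 to 227). The embryonic genes as a sum stood at 9.07, 12.7 and 6.37 FPKM, a ratio of 1.41 over the first step (1.16 to 1.70) and 0.4997 over the next (0.405 to 0.619).

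Beta-s, an adult beta-globin gene, was at 0.308 FPKM at E11.5 (0.128 to 0.624), 4.93 at E13.5 (3.999 to 6.02), then 67.4 at E15.5 (64.1 to 70.8). The 3 intervals do not overlap and each stage was above the one before. The ratio to the preceding stage was 16.0 at E13.5 (7.90 to 43.2), then 13.7 at E15.5 (11.1 to 16.9), and 219 over both steps (112 to 575), with about 7.38 reads behind the E11.5 value. Among all 22072 symbols Beta-s ranked 12372 from the top at E11.5, 5867 at E13.5, then 343 at E15.5. It stood at 0.0734 of the Hbb-y level at E11.5, 0.664 at E13.5 and 19.8 times that level at E15.5, so the main embryonic and the main adult beta gene changed places between E13.5 and E15.5.

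Hbb-b1, listed for the other adult beta copy, was under 1 estimated read at E11.5, at 1.10 FPKM at E13.5 (0.685 to 1.68), then at 7.97 at E15.5 (6.86 to 9.21). Beta-s over Hbb-b1 was 4.47 at E13.5 (2.80 to 7.64), then 8.46 at E15.5 (7.26 to 9.92), a split that the shared windows make uncertain. Hbb-b2 was at 0.160 FPKM at E11.5 (0.0402 to 0.426, about 3.66 reads) and under 1 read in the later libraries, where the overlapping Hbb-b1 row held the reads. With both rows of that place summed, the level was 0.160, 1.10 and 7.97 FPKM in stage order, a ratio of 6.90 over the first step (2.11 to 25.01) and 49.8 over both (17.5 to 169). Summed over these 3 adult beta rows, the level was 0.468, 6.04 and 75.4 FPKM.

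Hba-a1, an adult alpha-globin gene, was at 0.175 FPKM at E11.5 (0.0441 to 0.465), 1.08 at E13.5 (0.647 to 1.70), then 5.71 at E15.5 (4.72 to 6.84), again with intervals that do not overlap. The ratio to the preceding stage was 6.18 at E13.5 (1.93 to 23.4), then 5.28 at E15.5 (3.16 to 8.86). Hba-a2 was under 1 read in every library. Given the identity of the copies, its near-absence is a statement about the row and not about the gene, and the 2 symbols are best read as 1 adult alpha value.

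**Figure D2:**
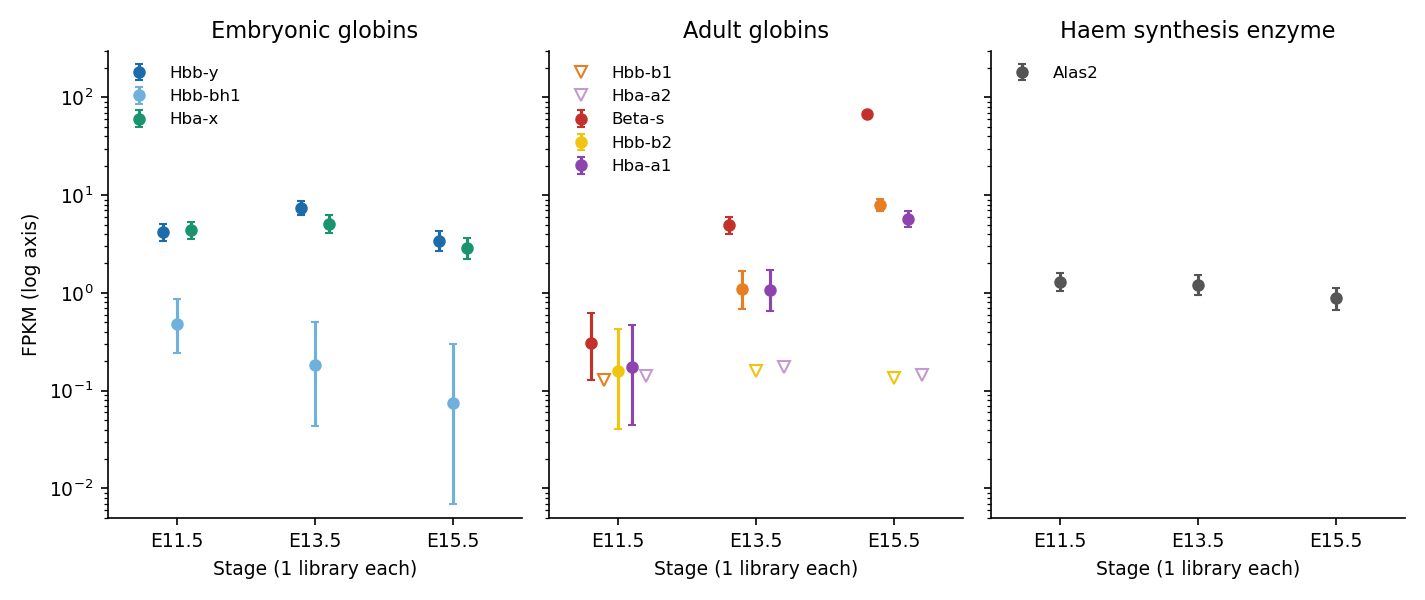
Points give FPKM (log axis) of each member at each stage, 1 library per stage, with approximate 95% Poisson intervals of the estimated reads, and open triangles mark the level of 3 reads for rows under 1 read. Hbb-y and Hba-x stay between 2.88 and 7.43 FPKM in all 3 libraries, whereas Beta-s, Hbb-b1 and Hba-a1 are at or under 0.308 FPKM at E11.5 and at 67.4, 7.97 and 5.71 at E15.5.

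The embryonic share was lower among beta-like than among alpha-like globins at the later stages. Within beta-like globins the embryonic share was 90.9% at E11.5 (84.4 to 94.9), 55.8% at E13.5 (49.7 to 61.7), then 4.42% at E15.5 (3.57 to 5.46). Within alpha-like globins, Hba-x made up 96.2% (90.5 to 98.5), 82.6% (74.6 to 88.5) and 33.5% (27.1 to 40.7). The intervals of the families overlap at E11.5 and do not at E13.5 and E15.5, where the alpha-like share was the higher.

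**Figure D3:**
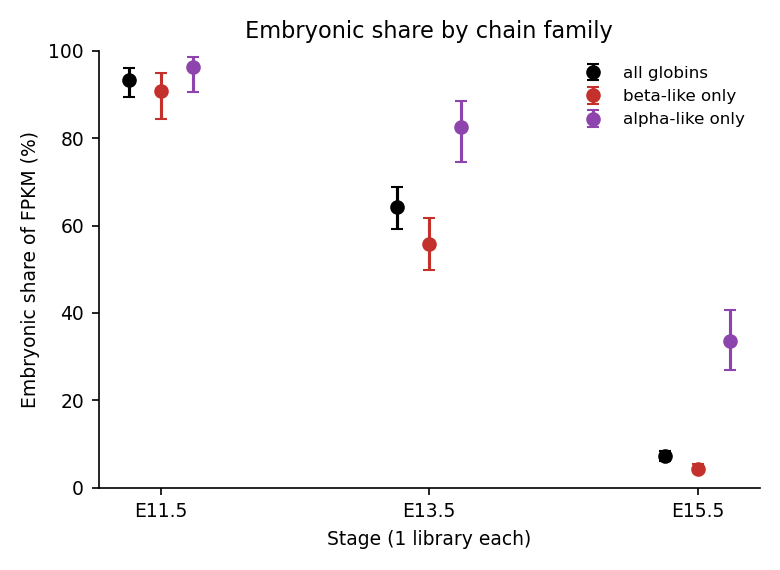
Points give the embryonic share of FPKM (%, vertical axis) among all globins, beta-like globins alone and alpha-like globins alone at each stage, with Wilson 95% intervals on estimated reads. At E15.5 the share is 4.42% for beta-like and 33.5% for alpha-like globins.

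Beta-like over alpha-like FPKM was 1.13 at E11.5 (0.858 to 1.48), 2.20 at E13.5 (1.76 to 2.77), then 9.19 at E15.5 (7.87 to 10.7). The E11.5 interval includes 1, and the later ones lie above it. Among adult genes alone the ratio was 2.67 at E11.5 (0.724 to 10.5), 5.58 at E13.5 (3.34 to 9.38), then 13.2 at E15.5 (11.0 to 16.1). The adult alpha rows are the ones with a duplicate place listed at 0, and the labels used here do not say how reads that match several places were treated. The part of such reads in this ratio, in the alpha-like share and in the embryonic share of all globins was not tested.

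Alas2, which encodes the first enzyme of haem synthesis in red cells, did not follow the adult globins. It was at 1.30 FPKM at E11.5 (1.05 to 1.59), 1.20 at E13.5 (0.945 to 1.51), then 0.877 at E15.5 (0.673 to 1.12), a ratio of 0.675 over both steps (0.482 to 0.938). Its reads were assigned to transcript NM_009653 at E11.5 and E13.5 and to NM_001102446 at E15.5, with the other transcript under 1 read each time. With NM_009653 alone in place of the sum of both transcripts, the difference in log2(FPKM + 1) was -1.14 at E15.5 against E13.5 and -1.20 at E15.5 against E11.5, beside -0.23 and -0.29 for the sum. Alas1, the enzyme's form in all tissues, was at 3.65, 3.76 and 4.16 FPKM, or 2.81, 3.12 and 4.74 times Alas2.

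In order of level at E11.5, Hba-x and Hbb-y came first with overlapping intervals, then Alas2, then Hbb-bh1, Beta-s, Hba-a1 and Hbb-b2, whose neighbours overlap. At E13.5 Hbb-y overlapped with Hba-x and Hba-x with Beta-s, and Alas2, Hbb-b1 and Hba-a1 followed with overlapping intervals. At E15.5 Beta-s, Hbb-b1, Hba-a1 and Hbb-y followed each other with no overlap between neighbours, Hba-x overlapped with Hbb-y, and Alas2 and then Hbb-bh1 stood below.

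Set among all genes, differences were taken on the log2(FPKM + 1) scale, which understates changes of low genes, for genes with a mean of at least 1 FPKM over the libraries and status OK in both, and 2-fold or more was counted. Of the 9 members 6 were compared, and Hbb-b2, Hbb-bh1 and Hba-a2 fell below the filter. At E13.5 against E11.5, 2 members were 2-fold higher, Beta-s (2.18 on that scale) and Hbb-b1 (1.07), and 0 were lower, where 6.0% of 10938 genes were higher and 1.02% lower. Hba-a1 (0.82), Hbb-y (0.70), Hba-x (0.18) and Alas2 (-0.06) did not reach 2-fold, and Hba-a1 did, at 2.10, with a pseudocount of 0.1. The Hbb-b1 count at this step rests on the overlapping Hbb-b2 row holding the E11.5 reads: with both rows summed, an alternative chosen after seeing the data, the difference was 0.86, under 2-fold, and 1 member was higher.

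At E15.5 against E13.5, 3 members were 2-fold higher, Beta-s (3.53), Hbb-b1 (2.09) and Hba-a1 (1.69), and 0 were lower, where 3.58% of 10934 genes were higher and 0.713% lower. Hbb-y (-0.93), Hba-x (-0.66) and Alas2 (-0.23) had lower values short of 2-fold. Hbb-y passed 2-fold lower, at -1.10, both with a pseudocount of 0.1 and with libraries rescaled to the mean of their FPKM sums. Rescaling moved the median of all genes from 0.04 to -0.13 and the share of higher among called genes from 83.4% to 67.1%, and the members kept their directions. At E15.5 against E11.5, the same 3 were 2-fold higher, Beta-s (5.71), Hbb-b1 (3.17) and Hba-a1 (2.51), and 0 were lower, where 12.6% of 10939 genes were higher and 2.14% lower. Since members that passed the filter through a high E15.5 value had to differ, these counts describe the members and are not a test of them. The comparisons share libraries.

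**Figure D4:**
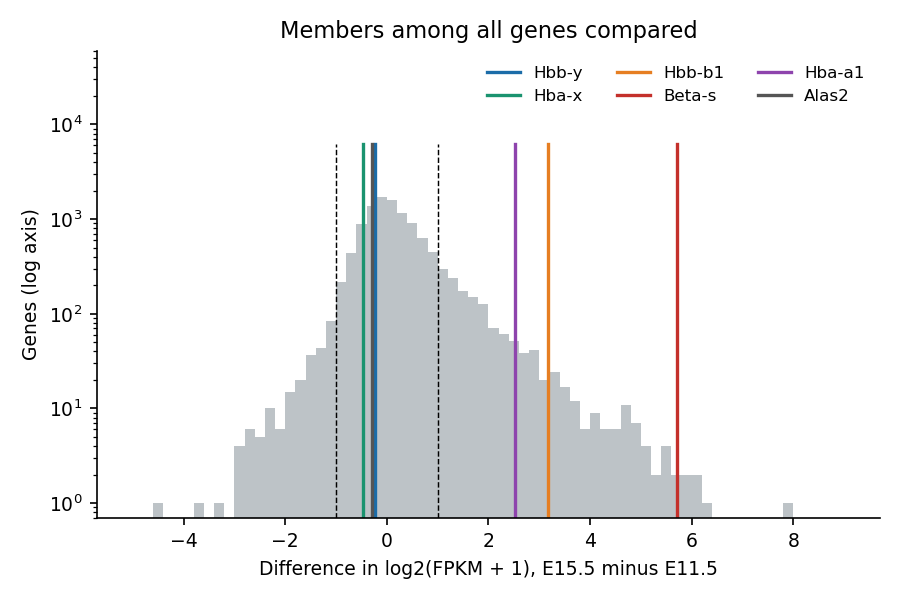
Grey bars count genes (log axis) by their difference in log2(FPKM + 1) between E15.5 and E11.5, and coloured lines mark the 6 members compared, with dashed lines at 2-fold. Hba-a1, Hbb-b1 and Beta-s lie at 2.51, 3.17 and 5.71, and Hbb-y, Hba-x and Alas2 lie between -0.47 and -0.24.

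Several genes that define red cells were at 0 or below 1 FPKM in the same libraries. Gata1 and Gfi1b, transcription factors of red cell development, were listed at 0 in all 3 libraries, and so were Cldn13 and the carbonic anhydrase gene Car1. Klf1, which activates adult beta-globin, was at 0.378, 0.355 and 0.161 FPKM, and the erythropoietin receptor gene Epor at 0.323, 0.298 and 0.394. The anion exchanger gene Slc4a1 was at 0.0576, 0.0278 and 0.0811 FPKM. Klf1 and Slc4a1 stood far below Beta-s in the E15.5 library, and which cells held the globin RNA was not tested. Ank1 (0.122, 0.492 and 1.18 FPKM), Tmod1 (0.139, 0.582 and 1.06) and Rhd (0.0159, 0.207 and 0.525) were highest at E15.5. They belong to the list of red cell membrane and skeleton genes and were named after their values were seen.

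The lists of red cell genes held members known to be used by many other cells. Over all genes compared at E15.5 against E11.5, 12.6% were higher and 2.14% lower, and the counts below stand beside these shares. Of 24 red cell membrane and skeleton genes measured, 15 stayed below 1 FPKM in every library, and 7 were compared, of which 4 were 2-fold higher and 0 lower at E15.5 against E11.5 (median 1.20, all genes 0.07). Those were the water channel gene Aqp1 (0.0575, 2.48 and 17.1 FPKM), Cd47 (2.46, 6.46 and 12.4), Bcam (0.690, 0.901 and 4.04) and Mpp1 (3.07, 6.02 and 8.33). Aqp1 and Bcam were below 1 FPKM at E11.5 and passed the filter only through higher later values. Of 20 genes of red cell enzymes and maturation, 12 stayed below 1 FPKM, and of 8 compared 0 were higher and 2 lower (median -0.23): the peroxiredoxin gene Prdx2 (165, 94.1 and 68.1 FPKM) and Bpgm, which makes the metabolite that lowers oxygen affinity (7.21, 5.12 and 2.85).

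The counts of the next lists also stand beside 12.6% of all genes higher and 2.14% lower, and single genes named from them are descriptions only. Of 21 erythroid transcription regulators, 10 were compared between E15.5 and E11.5, with 3 higher and 1 lower (median 0.60). The higher ones were Nfix (2.38, 35.0 and 89.2 FPKM), Runx1 (0.511, 2.13 and 2.69) and Zbtb7a (1.16, 2.12 and 3.59), and Myb was lower (2.78, 1.16 and 0.862). Of 21 measured genes of haem synthesis and transport all were compared, with 1 higher, the biliverdin reductase gene Blvrb (2.66, 3.45 and 7.03), and 0 lower (median 0.12). Of 15 iron genes 12 were compared, with 1 higher, the iron exporter gene Slc40a1 (0.347, 1.90 and 3.82), and 0 lower (median -0.11). Runx1 and Slc40a1 were below 1 FPKM at E11.5 and passed the filter only through higher later values. Among 5 other globin-family entries measured, Cygb, the cytoglobin of fibroblasts, reached 0.292, 0.688 and 1.98 FPKM and the other 4 stayed below 1. Gm5736, which the RefSeq table lists as Hbb-bh2, was listed at 0 in every library.

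**Figure D5:**
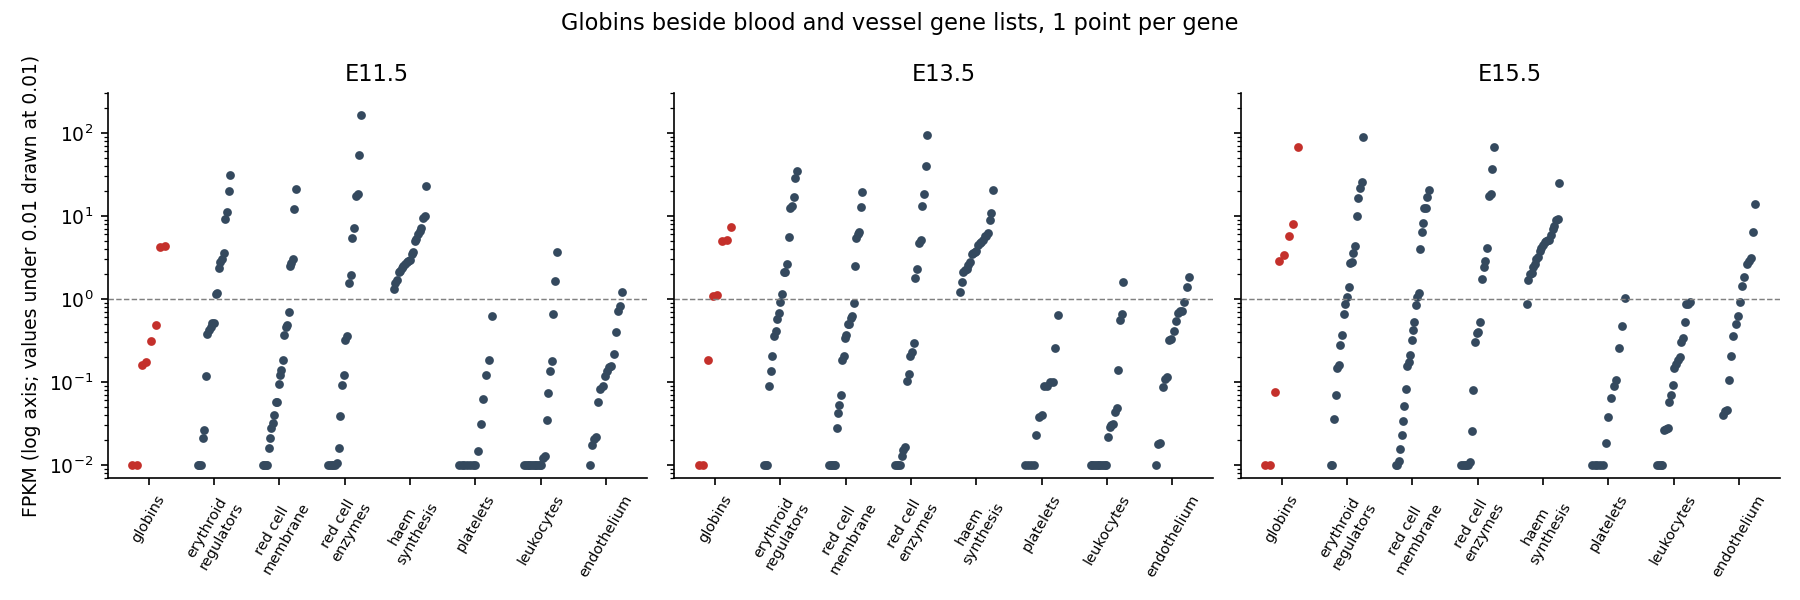
Each point is the FPKM (log axis, values under 0.01 drawn at 0.01) of 1 gene of a list in the library named above the panel, with globins in red and a dashed line at 1 FPKM. Globins reach 67.4 FPKM at E15.5, while no platelet marker exceeds 1.02 FPKM in any library and no leukocyte marker exceeds 3.63. Other lists hold genes above the top globin at E15.5, Nfix at 89.2 FPKM and Prdx2 at 68.1, and Cd34 of the endothelial list is at 13.9.

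Markers of other cells found in blood or vessels were given beside the globins for the same reason. Of 13 platelet and megakaryocyte markers, 12 were below 1 FPKM in every library, 4 were at 0 throughout (Gp9, Gp6, Tubb1 and Treml1), and their summed level was 1.05, 1.38 and 2.07 FPKM. Of 20 leukocyte and macrophage markers 18 were below 1 FPKM in every library, and the sum was 6.40, 3.18 and 4.84 FPKM. Most of the E11.5 sum was Coro1a (3.63, 1.61 and 0.875) and Cd68 (1.65, 0.652 and 0.9095). Both were lower at E15.5 than at E11.5, as were Cd14, Laptm5 and Lyz1. The pan-leukocyte gene Ptprc was at 0, 0.0066 and 0.0277. Lyz2 (0.00598, 0.0489 and 0.533), Fcer1g (0.137, 0.0430 and 0.877) and Tyrobp (0, 0 and 0.299), named after their values were seen, were highest at E15.5. The 16 endothelial markers summed to 4.21, 8.17 and 35.1 FPKM, highest at E15.5 like the adult globins. Of the 5 that passed the filter, in part through their E15.5 value, 1 was 2-fold higher at E13.5 against E11.5 (6.0% of all genes). At E15.5 against E11.5 it was 5 (12.6% of all genes), with Cd34 at 0.155, 1.37 and 13.9 FPKM and Emcn at 0.0174, 0.540 and 2.87. The defining endothelial genes Cdh5 (0.397, 0.316 and 0.917 FPKM) and Pecam1 (0.1175, 0.409 and 0.504) stayed below 1 FPKM and were highest at E15.5. Kdr, below the filter, was at 0.136, 0.716 and 1.83 FPKM. Of the 16 markers only Sox18 (0.816, 0.332 and 0.630) and Tie1 (0.0574, 0.0176 and 0.0394) were lower at E15.5 than at E11.5. Kdr, Sox18 and Tie1 were named after their values were seen. Skeletal muscle markers were likewise highest at E15.5, at sums of 10.1, 60.9 and 210.0 FPKM over 10 genes. All 7 compared were higher at E15.5 against E11.5, where 12.6% of all genes were. Several of the 7 passed the filter only through their later values, so this count is not a test. The part of other cells in the globin values was not tested.

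Of 6 tendon markers 5 were 2-fold higher at E15.5 against E11.5, beside 12.6% of all genes, with some passing the filter only through later values. The sum of the 6 was 378, 481 and 513 FPKM. At E11.5 that sum was almost all Scx, the gene used for the sort, with 4 of the 6 below 1 FPKM and Tnmd, the tenomodulin gene, listed at 0, and at E13.5 and E15.5 none was below 1 FPKM. The non-members whose pair of steps lay closest to those of the summed adult globins (2.31 and 3.34 on the log2 scale) were Htra1, Col14a1, Igfbp7, Bgn and Thbs2, at Euclidean distances of 0.57, 0.58, 0.69, 0.73 and 0.78. That measure uses 2 steps over 3 libraries among 10922 genes. Htra1, a secreted protease gene, was at 0.110, 6.07 and 52.1 FPKM, beside 0.643, 7.12 and 81.1 for the adult globins.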

How the data were processed

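The authors' deposited values are FPKM per RefSeq transcript, 1 table per library, with coverage, a signal equal to mean read depth, per the file headers. The submitters' processing notes list the tools Bowtie 0.12.7 and TopHat 1.4.1 and the build mm9 without saying how each was used. The labels' protocols name a NuGEN Ovation kit, which amplifies cDNA from little RNA. For the annotation release, strand setting, filters and reads with several matches, nothing is given in the sources used here.

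Tables were joined by transcript, symbol, locus and length. File starts count from 0, so 1 was added. FPKM was summed per symbol, changes used log2(FPKM + 1), and 2-fold or more was counted. The most common low value of coverage times length, 43 bases, was taken as 1 read, giving about 13770000, 12190000 and 17110000 reads on the listed transcripts. Poisson and Wilson 95% intervals rest on it. Calls were tested on simulated data in which only genes with a mean of at least 5 FPKM were changed. Only 2 of the 9 members reach that mean, so calls of the other members are not covered. Whether the calls of those 2 would hold in further libraries was not tested, since each stage has 1 library.

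Members and gene lists were chosen with earlier results of these data known. From each list, at most the 4 genes with the largest difference between E15.5 and E11.5 and at least 1 FPKM in 1 library were named. Genes at or near 0, and some marked as named after their values were seen, were named besides. Alternatives changed the pseudocount, filter, scaling, status, transcript choice and globins counted. Python 3.11.15, pandas 2.3.3, numpy 2.4.6, scipy 1.17.1, matplotlib 3.10.9 and Biopython 1.88 were used.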

Additional observations from a re-analysis of the deposited data

How the results depend on the processing

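The embryonic share stayed within its interval without Hbb-b1 and Hbb-b2 (94.9%, 67.9% and 8.01% in stage order) and with estimated reads. With OK rows only or the largest transcript the share was fixed in advance, since all 12 member rows were OK and the duplicate alpha rows were at 0. It moved when counted within alpha-like globins (96.2%, 82.6% and 33.5%) or beta-like globins (55.8% at E13.5 and 4.42% at E15.5). A pseudocount of 0.1 gave 3 members higher at E13.5 against E11.5 and 1 lower at E15.5 against E13.5 (Hbb-y), the latter also with rescaled sums (1). With a mean of at least 5 FPKM, 2 members were compared and 1 was higher in each comparison. Counts over all genes that moved by over 1.5 times were, with a pseudocount of 0.1, 1154 higher and 191 lower at E13.5 against E11.5, 189 lower at E15.5 against E13.5 and 431 lower at E15.5 against E11.5. With a mean of at least 5 FPKM they were 381 and 43, 214 and 42, and 712 and 124. With rescaled sums, 139 were lower at E15.5 against E13.5 and 362 at E15.5 against E11.5. With the overlapping Hbb-b1 and Hbb-b2 rows summed, chosen after seeing the data, 1 member was higher at E13.5 against E11.5. Of 114 counts and shares recomputed, 91 stayed, including the shares fixed in advance, and 23 moved. Among 111 changes of single members 96 stayed, including those of globins with the largest transcript, likewise fixed, while 15 moved and 0 reversed. The cause was not tested, except that fewer genes pass the higher filter. No paired analysis was possible because each stage has 1 library. At this depth 3 reads on a transcript of 600 bases are 0.133, 0.163 and 0.136 FPKM, which limits Hbb-bh1, Hbb-b2 and Hba-a2.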
